A study of Homo sapiens with 16 samples.

Results

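Telomerase was examined here through its 2 genes: TERT, which encodes the catalytic protein subunit, and TERC, which encodes the RNA that carries the telomere template. All windows around transcription start sites that carried either symbol were taken, which gave 8 of the 272902 windows counted (7 for TERT and 1 for TERC). Peaks were also looked for around TERT, in a stretch of 150 kb on chromosome 5 that begins at position 1200000, and 0 of the 16092 peak regions fell there. The cells were BJ-5ta, a line of human foreskin fibroblasts immortalized by an added telomerase (hTERT). Chromatin was sequenced either after immunoprecipitation (ChIP) or directly, as input. The labels name the antibody only as H3, while the study's methods give H3K9me2, that is, histone H3 dimethylated at lysine 9, which marks silenced regions. Genotype was crossed with serum. Wild-type BJ-5ta cells were compared with ΔLEO1 cells, a single BJ-5ta knockout clone (clone 13) that lacks LEO1, a subunit of the PAF1 complex that travels with RNA polymerase II. Both were kept in 10% serum or in 0.1% serum for 10 days, which brings fibroblasts into quiescence, and both carried the added hTERT. Each of the 8 groups held replicates A and B. ΔLEO1 10% serum ChIP replicate A, which held 54 reads in all, was left out, so that 15 libraries were used and ΔLEO1 10% serum ChIP had 1 library. Nothing in the labels says that A and B were separate cultures, so p-values measure the spread between these samples, which may be technical. DNA counts cannot check the loss of LEO1 or the cell type.

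Telomerase lengthens chromosome ends: TERT copies the template in TERC into telomere repeats. Most adult somatic cells, fibroblasts included, keep TERT silent and still make TERC, so that TERT is what limits telomerase in them. BJ-5ta escapes senescence through an introduced TERT sequence, while the cell's own TERT gene remains at its place near the end of the short arm of chromosome 5.

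The promoter of TERT is shown because the windows with the highest ChIP level of the gene lie on it. RefSeq places it on the minus strand of chr5:1295019-1295318 (GRCh38.p14), 250 bases before to 50 bases after the gene start. Capitals mark the E-box CACGTG, a motif read by MYC and related factors, and the GC box GGGCGG, a motif read by SP1, here on the opposite strand as CCGCCC.

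TERT promoter: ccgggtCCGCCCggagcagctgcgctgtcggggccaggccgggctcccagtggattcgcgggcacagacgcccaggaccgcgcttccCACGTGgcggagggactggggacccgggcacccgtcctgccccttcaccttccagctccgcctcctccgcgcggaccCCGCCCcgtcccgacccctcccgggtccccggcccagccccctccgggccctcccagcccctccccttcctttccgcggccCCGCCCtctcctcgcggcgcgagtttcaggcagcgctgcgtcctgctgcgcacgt

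Both strands were searched and the 2 motifs did not overlap. The E-box had 1 match, which begins 163 bases before the gene start, and 7.26% of the 35116 RefSeq promoters of this length hold one. The sequence ends in CACGT, the motif without its last letter, and a match that runs past the end would not be counted. The GC box had 3 matches, beginning 244, 86 and 5 bases before the start, and 45.0% of the promoters hold at least 1. The sequence is 77.3% G and C, more than in 94.1% of all promoters. A match is a description of letters only. TERC was matched to no promoter sequence.

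The TERT windows fall into 3 separate stretches of the gene. TERT (ENSG00000164362) lies on the minus strand of chromosome 5, and each window spans 1 kb to either side of an annotated start (hg38). The window centred on the RefSeq gene start, of transcript ENST00000310581, runs from 1294068 to 1296068 and is called the TERT start window below. ENST00000656021 starts 21 bases inside it. ENST00000334602 and ENST00000460137 share a start 79 bases inside it, so these 4 windows count almost the same reads. The other 3 windows lie within the gene: ENST00000484238 at 1282010 to 1284010, 12058 bases from the gene start, ENST00000503656 at 1265524 to 1267524, 28544 bases away, and ENST00000667927 at 1263534 to 1265534, 30534 bases away. TERC (ENSG00000270141) has a single window, of ENST00000602385, on the minus strand of chromosome 3 from 169764060 to 169766060, which overlaps the window of 1 other, unnamed transcript. The exon structure was not used here.

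Reads were few. The window table held 3267811 to 9238282 reads per input library and 2153836 to 3696942 per ChIP library. Levels are normalised read counts, given as counts per 1000000 reads (CPM) after TMM scaling within the inputs or within the ChIP libraries. All windows are 2000 bases long, so levels can be set beside each other. The counts hold no spike-in scaling, so a change over the whole genome would not show. ΔLEO1 10% serum input replicate A was the shallowest input library.

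In input DNA, TERT was counted at an ordinary level, with no excess over neighbouring genes. In wild-type cells the TERT start window held 20 and 39 input reads in 10% serum and 20 and 17 in 0.1% serum, for replicates A and B. In ΔLEO1 cells it held 6 and 32 in 10% serum and 13 and 23 in 0.1% serum. The low value is that of the shallowest library, which also had the lowest level after scaling, and the genotypes overlap. The level was 2.95 ± 0.769 CPM (SD, n = 8), between 1.88 and 4.23 CPM. The 6 distinct TERT windows had mean input levels from 2.87 CPM for ENST00000503656 to 3.50 CPM for ENST00000667927.

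Within 2 Mb of the gene start, 76 other genes had a window with at least 0.5 CPM of input. The window with the most input was kept for each. This favours high input and low ratios of ChIP to input among neighbours, while the TERT start window was fixed by position. The input levels of the neighbours ran from 0.518 CPM (BRD9P2) through a median of 3.33 to 5.74 CPM (PLEKHG4B). The TERT start window stood above 23 of the 76 and ENST00000484238 above 34. ENST00000667927, the TERT window with the most input, stood above 46. No TERT window stood outside the range of its neighbours. An added TERT copy without introns would give reads only to exons, which these windows do not separate from the rest, and its reads cannot be told apart from those of the cell's own gene.

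TERT lies in a counted island between stretches of chromosome 5 without reads. In all 15 libraries together, no window of 32 with starts from 1321829 to 1494928 held more than 12 reads. The same held for 15 windows from 997308 to 1112063, with at most 10 reads each, and for 8 windows from 524109 to 612340, with 0. The island between, with starts from 1178546 to 1309377, held 14 windows with a median of 238.5 reads. CLPTM1L, the gene next to TERT, falls in the first of these stretches: its 16 windows held 3 reads in all. Of the 17 genes in such stretches, 11 also have windows on alternate contigs, against 3 of the 76 counted genes. The 17 and the 76 are not separate sets: SLC9A3, CEP72 and LPCAT1 have windows of both kinds and are in each. All 21781 windows on alternate contigs held 0 reads, and neither TERT nor TERC has one there. The part of read mapping in these gaps was not tested.

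**Figure D1:**
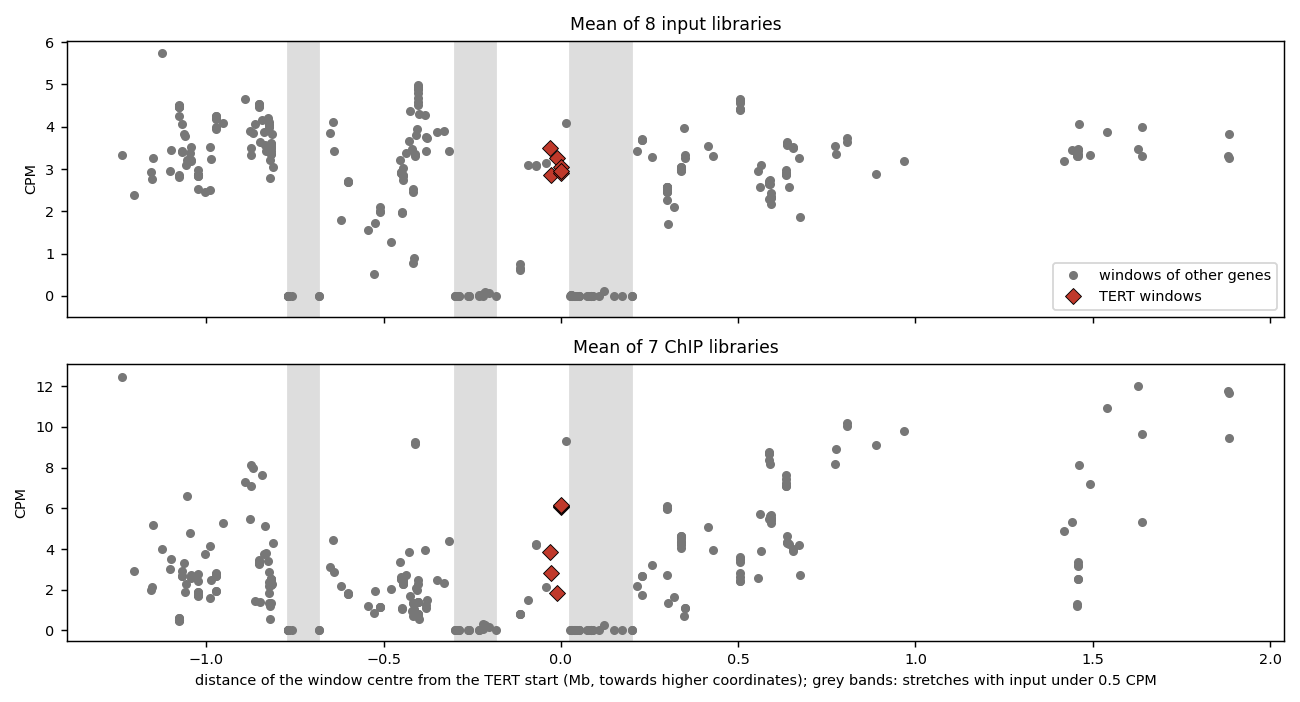
Mean input level (top, 8 libraries) and mean ChIP level (bottom, 7 libraries) in CPM of each window within 2 Mb of the TERT start, against the distance of its centre in Mb. Red diamonds are the 6 distinct TERT windows, grey points the windows of other genes, and grey bands the stretches under 0.5 CPM of input; the TERT windows lie within the input levels of their neighbours, and the 3 at the gene start carry about 6 CPM of ChIP.

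The ChIP level was highest at the gene start and lower inside the gene. The start window held 124 ChIP reads over 7 libraries, a level of 6.18 ± 2.68 CPM (SD, n = 7). ENST00000484238, the nearest window inside the gene, had 1.85 ± 0.818 CPM. ENST00000503656 had 2.82 ± 1.27 CPM and ENST00000667927 had 3.85 ± 2.21 CPM.

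Set against input, the TERT start was enriched 2.04-fold. The log2 ratio of ChIP to input, fitted over all 15 libraries with equal weight for the 4 conditions, was 1.03 ± 0.19 (SE; edgeR's quasi-likelihood test, Benjamini-Hochberg adjusted p = 2.5e-07). ENST00000484238 went the other way, at -0.69 ± 0.25 (edgeR adjusted p = 0.00939). ENST00000503656 (0.09 ± 0.26) and ENST00000667927 (-0.05, edgeR adjusted p = 0.795) did not pass the test. Of the 8 member windows, the 4 at the TERT start and the TERC window were called higher in ChIP and 1 was called lower. Over all windows tested, 36.4% were called higher and 39.1% lower, so that a call by itself sets no window apart.

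The place of the TERT start among other windows says more than the call. Its log2 ratio lay above that of 84.8% of the 237580 windows tested. In ChIP libraries reads fell with promoter G and C content between the bins at 45% and 75%, and the 1496 genes tested whose promoters lie within 2.5 percentage points of TERT had a median log2 ratio of -1.02. TERT stood above 94.7% of them. Among the 76 neighbouring genes, the start window stood above 62 in the ratio of mean ChIP to mean input (2.09 for TERT, median 1.08) and above 64 in ChIP level. By the rule used for the neighbours, the TERT window would be ENST00000667927. That window stood above 39 in the ratio (1.10) and above 42 in ChIP level. The neighbouring ratios ran from 0.116 for SDHA, a subunit of succinate dehydrogenase that every respiring cell makes, to 3.74 for ENSG00000250020.

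**Figure D2:**
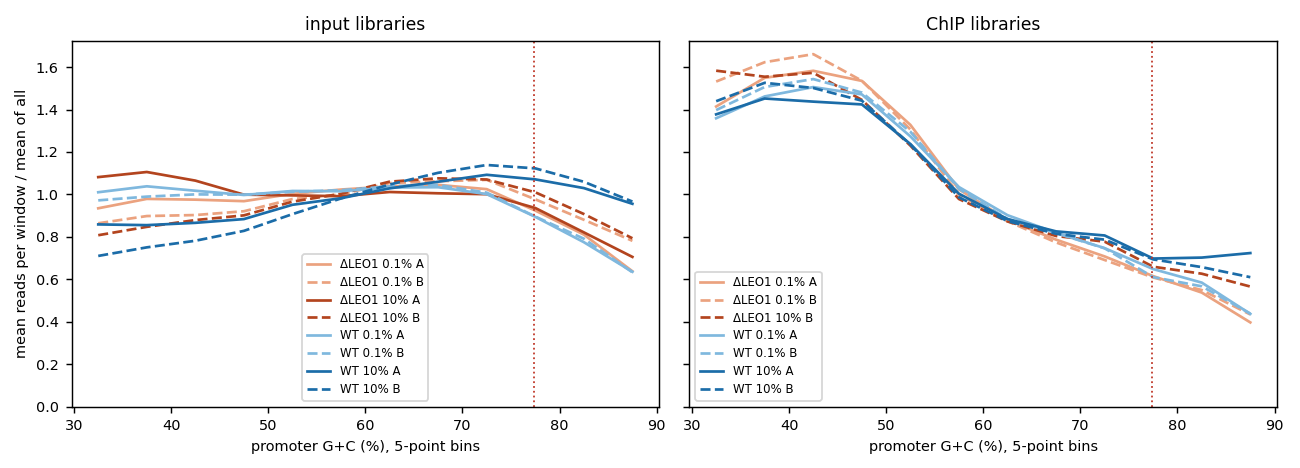
Mean reads per gene start window, relative to the mean of 17767 matched genes, in 5-point bins of promoter G and C content, for each of the 8 input (left) and 7 ChIP (right) libraries (solid lines replicate A, dashed lines replicate B). The dotted line marks the 77.3% of the TERT promoter; relative reads fall from the bin at 45% to the bin at 75% in every ChIP library, and in the high bins the inputs of wild-type cells in 10% serum lie above the other inputs.

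Within each condition the start window gave a log2 ratio above 0. In wild-type cells the start window had a log2 ratio of ChIP to input of 1.30 ± 0.29 in 10% serum (edgeR adjusted p = 4.45e-05), where 29.5% of windows were called higher. In 0.1% serum the ratio was 1.17 ± 0.33 (edgeR adjusted p = 0.00167), against 25.7% called higher. In ΔLEO1 cells it was 1.17 ± 0.46 in 10% serum (edgeR adjusted p = 0.0456), against 15.4% called higher. That condition has 1 ChIP library, whose spread is assumed to be that of the other groups. In 0.1% serum it was 0.46 ± 0.37 (edgeR adjusted p = 0.28), which did not pass the test, and 27% of windows were called higher there. Between genotypes, the log2 ratio differed by -0.71 ± 0.50 in 0.1% serum (ΔLEO1 less wild type, edgeR adjusted p = 0.791) and by -0.14 ± 0.59 in 10% serum (edgeR adjusted p = 0.991), neither past the threshold.

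No peak region overlapped TERT. The nearest on the lower side ran from 974951 to 975782, in a LINE element 319286 bases from the gene start. The nearest on the higher side ran from 1539161 to 1540390, in a simple repeat by LPCAT1, 244093 bases away. Of 59 peak regions within 2 Mb, 7 lay on the lower side, towards the chromosome end, and 52 on the higher side. The sides are not alike: the gene start is at position 1295068, so the lower side is shorter than 2 Mb. It also holds the stretches without reads from 524109 to 612340 and from 997308 to 1112063, and the higher side that from 1321829 to 1494928. The enrichment at the TERT start is therefore one of window counts and not of a called peak.

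The loss of LEO1 was the main comparison of the study. At the TERT start, ChIP levels were lower on average in the ΔLEO1 clone, but the difference did not pass the test. In 0.1% serum the start window held 25 and 11 ChIP reads in wild type (replicates A and B) and 16 and 6 in ΔLEO1. The levels were 7.55 and 4.04 CPM in wild type and 4.26 and 2.37 CPM in ΔLEO1, so that the groups overlapped. The log2 difference, ΔLEO1 over wild type, was -0.67 ± 0.34 (edgeR adjusted p = 0.469). It ran from -0.19 without wild type replicate A to -1.10 without ΔLEO1 replicate A, and was -0.43 without ΔLEO1 replicate B. In 10% serum the wild type held 26 and 25 reads (9.93 and 8.07 CPM) and the single ΔLEO1 library 15 (7.02 CPM). This log2 difference was -0.32 ± 0.39 (edgeR adjusted p = 0.884).

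One window inside TERT passed the test, and the size of its difference rests on a single library. ENST00000667927 held 18 and 18 ChIP reads in wild type in 0.1% serum and 1 and 9 in ΔLEO1. These are 5.44 and 6.62 CPM against 0.266 and 3.56 CPM, and the groups did not overlap. The log2 difference was -1.54 ± 0.39 (edgeR adjusted p = 0.0328), and 1 of the 7 member windows tested was called where 0.347% of all windows were. The 1 read was in ΔLEO1 replicate A. Without that library the log2 difference was -0.63 (edgeR adjusted p = 0.706), without ΔLEO1 replicate B it was -2.81 (edgeR adjusted p = 0.00778), and with the input difference taken off it was -1.94 (edgeR adjusted p = 0.267). Without wild type replicate A it was -1.67 (edgeR adjusted p = 0.157) and without replicate B -1.42 (edgeR adjusted p = 0.222), so the call was lost at about the same size. The same was true of a fit of the compared groups alone, at -1.55 (edgeR adjusted p = 0.069), and of DESeq2, at -1.71 (adjusted p = 1.00). DESeq2 called 0 of the 159524 windows in this comparison, where edgeR called 554. In input the same window held 22 and 22 reads in wild type and 27 and 25 in ΔLEO1 in 0.1% serum.

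The other windows inside TERT gave no call. ENST00000484238 held 9 and 7 reads in wild type in 0.1% serum and 2 and 3 in ΔLEO1, and in 10% serum 6 and 7 against 3. Every ΔLEO1 library lay below every wild-type library there, but the counts were too low for the filter of the ChIP fit. The fit of all 15 libraries did test this window with the input difference taken off. Its log2 difference was then -1.41 ± 0.64 in 0.1% serum (edgeR adjusted p = 0.602) and -0.70 in 10% serum. ENST00000503656 held 13 and 5 reads against 4 and 5 in 0.1% serum, with overlapping levels, and its log2 difference was -0.78 ± 0.47 (edgeR adjusted p = 0.564). Its input in 0.1% serum moved alike, from 30 and 32 reads in wild type to 15 and 16 in ΔLEO1, a log2 difference of -0.89 ± 0.31 (edgeR adjusted p = 0.773). With the input difference taken off, the ChIP difference was -0.04 (edgeR adjusted p = 0.992). In 10% serum none of the 7 member windows tested was called for genotype, and 0.0295% of all windows were.

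**Figure D3:**
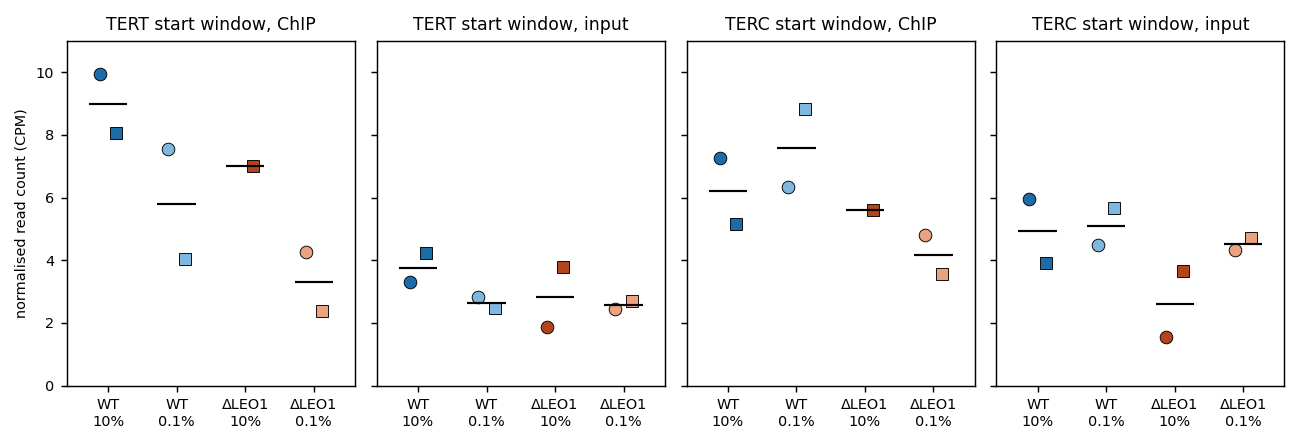
Normalised read count (CPM) of the TERT and TERC start windows in each ChIP and input library, by genotype (WT, wild type) and serum. Circles are replicates A, squares replicates B, and bars the group means; the ΔLEO1 libraries in 0.1% serum hold the lowest group means in ChIP for both genes, while ΔLEO1 10% serum input A is the lowest input library.

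Between sera in wild-type cells, no difference at TERT passed the test. In wild-type cells the ChIP level of the start window was 8.998 ± 1.32 CPM (SD, n = 2) in 10% serum and 5.80 ± 2.48 CPM in 0.1% serum. All values in 10% serum lay above those in 0.1% serum, with a log2 difference, 0.1% over 10%, of -0.53 ± 0.29 (edgeR adjusted p = 0.571). This ran from -0.24 without 0.1% serum replicate B to -1.01 without 0.1% serum replicate A. Input moved with it, from 3.76 ± 0.653 to 2.64 ± 0.244 CPM, a log2 difference of -0.49 ± 0.30 (edgeR adjusted p = 0.581). With the input difference taken off, the ChIP difference was -0.13 ± 0.61. None of the 7 member windows tested in ChIP was called for serum in wild type, where 0.27% of windows were. None of the 8 was called in wild-type input, where 0.0235% were. In ΔLEO1 the ChIP difference between sera was not tested. The start window there had 7.02 CPM of ChIP in 10% serum, in 1 library, and 4.26 and 2.37 CPM in 0.1% serum.

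Input DNA at TERT did not differ between genotypes beyond its spread. The log2 difference over both sera was -0.13 ± 0.23 (edgeR adjusted p = 0.995), and 0 of the 8 member windows were called, against 0.0176% of all windows. At an unadjusted p under 0.05, 1 of them passed: ENST00000503656, at -0.55 ± 0.24 (edgeR adjusted p = 0.832). DESeq2 called 0 of the 238006 windows in this comparison, so its lack of a call at either start window says nothing about them. As a share of the input reads of all neighbouring windows within 2 Mb, the start window held 3.57 ± 0.833 per 1000 in ΔLEO1 and 3.74 ± 0.665 in wild type (SD, n = 4). A two-sided exact permutation test of 4 against 4 libraries gave p = 0.743, where the smallest p it allows is 0.0286.

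The neighbourhood of TERT as a whole held a lower share of the reads in ΔLEO1. These levels are relative to the rest of each library and do not measure the total amount of the mark. With spike-in scaling, the study reported a global increase of H3K9me2 in quiescent ΔLEO1 cells, which these counts could not show. The summed input level of all windows within 2 Mb was 713 to 814 CPM in the 4 ΔLEO1 libraries and 803 to 925 CPM in the 4 wild-type libraries. The summed ChIP level was 697 to 890 CPM in 3 ΔLEO1 libraries and 901 to 1067 CPM in 4 wild-type libraries, without overlap. In input, 185 of 235 neighbouring windows tested had a log2 difference below 0, with a median of -0.12, beside -0.13 for TERT. In ChIP at 0.1% serum 127 of 151 did, with a median of -0.36, beside -0.67 for TERT, and 23 of the 151 lay below TERT. Over all windows tested the medians were 0.00 in input and -0.01 in ChIP. Neighbouring windows share reads and libraries, so these counts are descriptions. Of the 151, 4 were called, where 0.347% of all windows were, and these 4 were lower in ΔLEO1: 1 at AHRR, the repressor of the aryl hydrocarbon receptor, and 3 at ENSG00000248994.

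**Figure D4:**
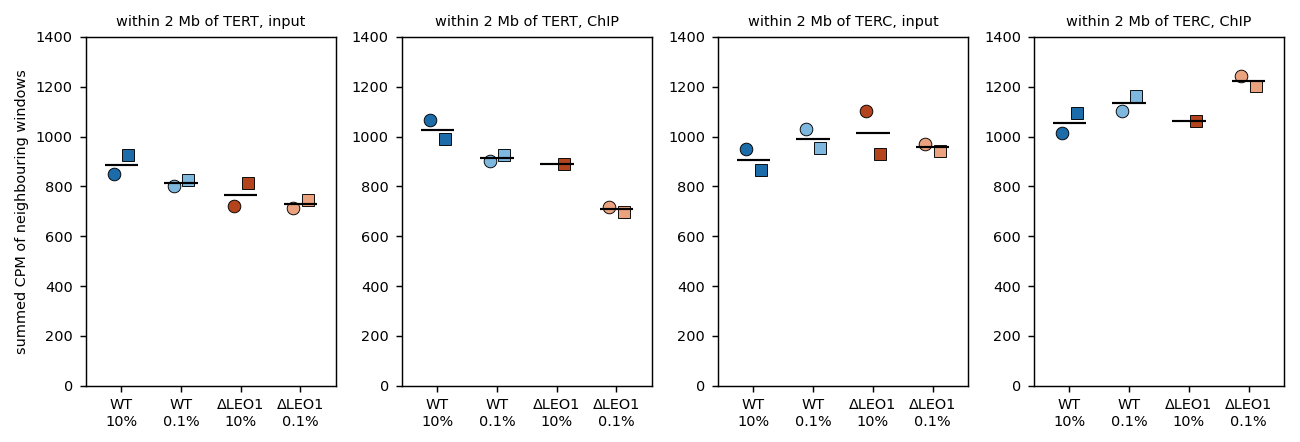
Summed CPM of all windows within 2 Mb of TERT or TERC, without the windows of the gene itself, in each input and ChIP library by genotype and serum (circles replicate A, squares replicate B, bars group means). Around TERT the ΔLEO1 ChIP libraries reach at most 890 CPM and the wild-type ones at least 901 CPM; around TERC the ΔLEO1 values reach the top of the range.

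TERC, the RNA gene, stood at the middle of its neighbourhood in both assays. Its window held 36 and 36 input reads in wild type in 10% serum and 32 and 39 in 0.1% serum. In ΔLEO1 it held 5 and 31 in 10% serum and 23 and 40 in 0.1% serum, and the 5 were again in the shallowest library. That library was also the lowest after scaling, at 1.57 CPM, where the other inputs had 3.65 to 5.94 CPM. The input level was 4.28 ± 1.353 CPM (SD, n = 8), above that of 33 of 76 neighbouring genes on chromosome 3, whose median was 4.36 CPM. These neighbours too were taken by their window with the most input. The ChIP level was 5.94 ± 1.73 CPM (SD, n = 7), above that of 36 of the 76. The log2 ratio of ChIP to input was 0.52 ± 0.18 (edgeR adjusted p = 0.00603). Among the 76 neighbours the ratio of mean levels stood above 40 (1.39 for TERC, median 1.37). No peak overlapped the window, and the nearest lay 138666 bases away.

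Between genotypes, no ChIP difference at TERC passed the test. In 0.1% serum it held 21 and 24 ChIP reads in wild type (6.34 and 8.82 CPM) and 18 and 9 in ΔLEO1 (4.80 and 3.56 CPM), and the groups did not overlap. The log2 difference was -0.71 ± 0.32 (edgeR adjusted p = 0.37). Of its 188 neighbouring windows 73 were below 0 and 115 above, with a median of 0.14, and 4 lay below TERC, a comparison that was not tested. In 10% serum the wild type held 19 and 16 reads and the ΔLEO1 library 12, a log2 difference of -0.11 ± 0.44 (edgeR adjusted p = 0.973). Between sera in wild type the difference was 0.26 ± 0.30 (edgeR adjusted p = 0.836).

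TERC input did not pass the test between genotypes either. The log2 difference over both sera was -0.37 ± 0.20 (edgeR adjusted p = 0.895). It was -0.25 without the shallowest library (ΔLEO1 10% serum input replicate A), -0.24 without wild type 10% serum input replicate A and -0.79 without ΔLEO1 10% serum input replicate B, and 1 of 225 neighbouring windows lay below it. Its share of the neighbouring input reads was 3.70 ± 1.58 per 1000 in ΔLEO1 and 5.27 ± 0.961 in wild type (SD, n = 4, exact permutation p = 0.171, two-sided). The log2 difference of this share was -0.13 within 0.1% serum and -1.01 within 10% serum, which holds the shallowest library. With the input difference taken off, the ChIP difference in 0.1% serum was -0.62 ± 0.43 (edgeR adjusted p = 0.779).

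**Figure D5:**
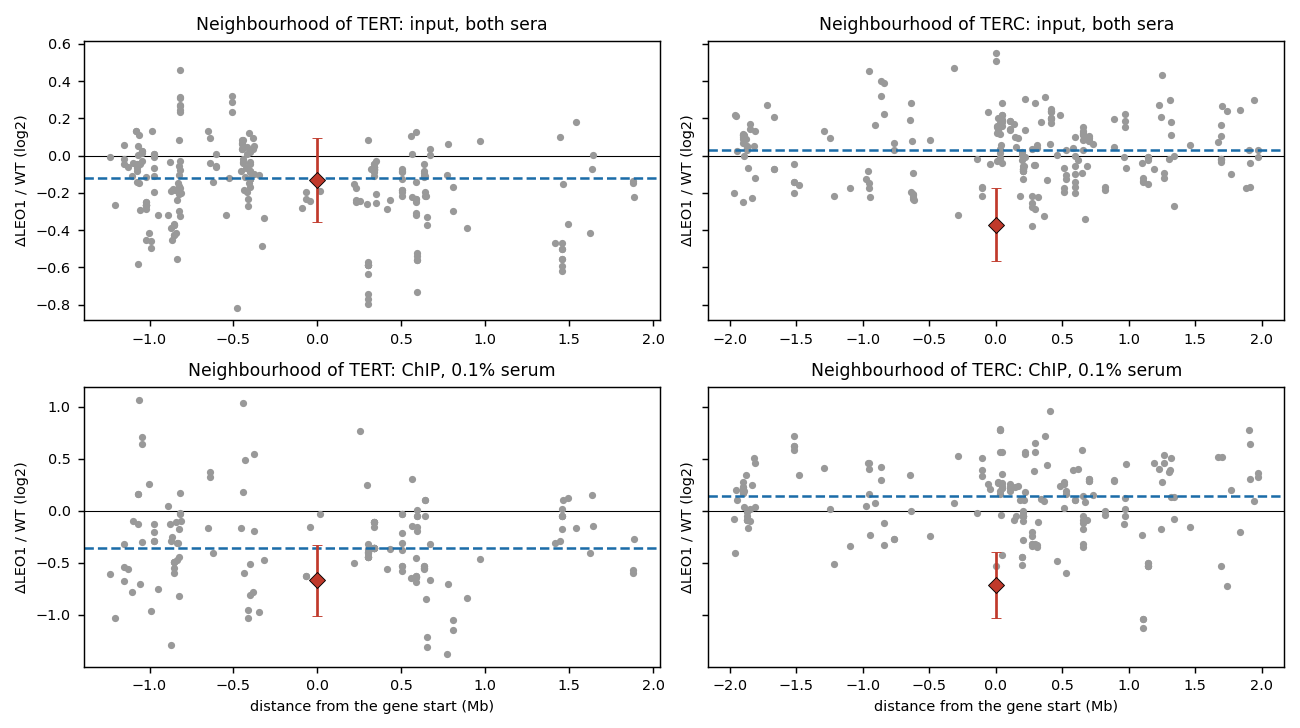
Fitted log2 difference (ΔLEO1 over wild type) of each tested window within 2 Mb of TERT (left) and TERC (right), in input over both sera (top) and in ChIP in 0.1% serum (bottom), against distance from the gene start in Mb. Red diamonds are the start windows with their standard error, grey points the neighbours and dashed lines the neighbours' medians; TERT lies among neighbours of which 185 of 235 in input and 127 of 151 in ChIP are below 0, and around TERC 101 of 225 and 73 of 188 are.

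Some neighbouring genes resembled the members in level over the 15 libraries. By the root mean square difference of log2(CPM + 0.5), the windows most like TERT were those of PDCD6P1 (0.382), IRX4-AS1 (0.386) and ENSG00000199540 (0.410), where the median neighbour differed by 0.847. PDCD6P1 had 3.05 CPM of input and 4.65 CPM of ChIP. The nearest separate window on the higher side was that of MIR4457, a microRNA gene 14309 bases away, with 4.08 CPM of input and 9.29 CPM of ChIP. On the lower side ENSG00000287486, 43062 bases away, had 3.14 and 2.11 CPM. The windows most like TERC were those of LINC01997 (0.426), MIR551B (0.457) and RNU6-348P (0.459), against a median of 0.679. The nearest windows to TERC were those of ACTRT3, 4501 bases away, with 3.38 CPM of input and 3.65 CPM of ChIP, and RNU6-637P, 44767 bases away, with 4.37 and 8.52 CPM.

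Most of the other telomere genes had less ChIP signal than input in the window compared. A list of 28 genes was drawn up: proteins of the telomerase particle, the shelterin complex that caps telomeres, the CST complex and its partners in telomere replication, ATRX and DAXX, whose loss goes with telomerase-free telomere upkeep, and regulators of the TERT promoter. The window with the most input was taken for each, which is not always the gene start and favours low ratios of ChIP to input. PARN, an RNA trimming enzyme, and DAXX were listed at 0 reads, which left 26 genes tested. The median log2 ratio of ChIP to input was -1.28. It was -0.05 over all windows and -0.36 over 1 start window for each of 17767 matched genes. Of the 26, 15 genes were called lower and 3 higher, where 39.1% of all windows were called lower and 36.4% higher. The lowest was WRAP53, which brings telomerase to Cajal bodies, at -3.03 ± 0.29 (edgeR adjusted p = 9.09e-21). CTCF, a chromatin insulator protein, was at -2.86 and GABPA, an ETS family factor, at -2.71, while SP1 was at -2.58 and MYC at -1.86. The 3 called higher were TERF1, a shelterin protein that binds the telomere repeat, at 1.09 ± 0.15, ETS1, a transcription factor, at 0.71 ± 0.17, and RTEL1, a helicase, at 0.51 ± 0.16. The place of TERT among them turns on its window. Its start window, at 1.03, lay below 1 of the 26, while its own window with the most input, ENST00000667927, was at -0.05 and lay below 6.

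None of these genes was called between genotypes. In ChIP at 0.1% serum 11 of the 28 passed the filter, 6 of them below 0 and 5 above, with a median log2 difference of -0.21 (all windows, -0.01), and edgeR called 0 genes over any of their 143 tested windows, against 0.347% of all windows. At an unadjusted p under 0.05, 1 of the 11 passed, where 10.7% of all windows did: RUVBL1, an ATPase that helps assemble telomerase, at -1.01 ± 0.35 (edgeR adjusted p = 0.189). NAF1, an assembly factor, was at -0.49 ± 0.37, NOP10, a protein of the particle, at 0.55 ± 0.35 and ETS1 at 0.25 ± 0.24. In input 26 passed the filter, 12 below 0 and 14 above, with a median of 0.01, and edgeR called 0. At an unadjusted p under 0.05, 5 passed, where 5.63% of all windows did, among them GAR1, a protein of the particle, at -0.49 ± 0.20, and MYC at 0.41 ± 0.19. CTCF was at -0.43 ± 0.19 and DCLRE1B, a nuclease that trims telomere ends, at 0.38 ± 0.17. DESeq2 called 0 of the 159524 windows tested in ChIP and 0 of the 238006 in input. Its lack of a call at these genes therefore says nothing about them.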

How the data were processed

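The authors sequenced ChIP and input DNA of BJ-5ta cells in 8 groups (7 of 2 libraries and 1, ΔLEO1 ChIP in 10% serum, of 1 library used here) and deposited raw read counts, whole numbers without scaling, for start site windows and for peak regions. Per the labels, the submitters' processing notes name bcl2fastq 2.20.0.422, STAR 2.7.10a and HOMER, with the hg38 and dm6 builds. The methods describe bcl2fastq and another STAR version for the RNA sequencing run. For the ChIP signal they name csaw and spike-in scaling, which these counts do not hold. The handling of reads that map to several places is not given in the sources used here. Every value column was assigned to a library by its title.

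Counts were tested over the whole window table with edgeR 4.0.16 in R 4.3.3 (quasi-likelihood F test, TMM scaling, filterByExpr with a minimum count of 10, prior count 2, Benjamini-Hochberg adjustment, threshold 0.05), in separate fits of the 7 ChIP and 8 input libraries and, for ChIP over input, of all 15. Errors of log2 differences are the difference divided by the square root of its F. They are unreliable where the difference is near 0, and can come out too small or too large there. Shares of reads were tested with exact permutation tests (Python 3.11.15). The named neighbours were the nearest gene on each side and the 3 most alike in level. Telomere genes were named where called, and otherwise by the smallest unadjusted p in each direction. The members and lists were chosen with earlier results of these data known. The cutoff of 0.5 CPM for windows without input was set after the data were seen. In the 7 groups with 2 libraries, replicates differed by more than counting error over peak regions. The code was tested on simulated data. Alternatives were DESeq2 1.42.0, no filter, library totals, distinct windows, a replicate block, the compared groups alone, input taken off and each library left out.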

Additional observations from a re-analysis of the deposited data

How the results depend on the processing

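Of 188 alternative values for 15 results, 174 kept their direction and their side of the threshold. Most of these results were not called to begin with, so that staying on their side says little. Of the called ones, the inner TERT window (ENST00000667927, ChIP, genotype, 0.1% serum) kept its call in 5 of 11 alternatives. These include DESeq2, which called 0 windows in that comparison. The share of neighbouring input reads at TERT (log2 -0.06, ΔLEO1 over wild type) turned to 0.12 within 0.1% serum and ran from -0.215 to 0.0594 when single libraries were left out. The TERC ChIP difference in 10% serum (log2 -0.11) turned to 0.42 with the input difference taken off, and ran from -0.31 to 0.12 over single libraries left out. The ratio of ChIP to input at TERC (log2 0.52) lost its call with DESeq2, at 0.42 (adjusted p = 0.137), and ranged from 0.39 to 0.72 over single libraries left out. It fell short without wild type 10% serum ChIP replicate A (adjusted p = 0.0506) and without ΔLEO1 0.1% serum ChIP replicate A (adjusted p = 0.0758). The cause was not tested. The same ratio at TERT stayed called in all 19 alternatives, from 0.83 to 1.19. Scaling TERT input by genes of like promoter G and C content, chosen after seeing the data, gave -0.17 (exact permutation p = 0.4). TERC input without the shallowest library gave a share difference of log2 -0.24.

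The replicate letters showed no clear pairing of the libraries: correlations of the A minus B differences between groups ran from 0.00 to 0.02 in ChIP and from 0.01 to 0.11 in input. With few reads per window such correlations are low in either case, so this check cannot decide whether the letters pair. With the replicate block the share at TERT gave exact permutation p = 0.778, the inner TERT window kept its call at log2 -1.53, and no other call changed. For input and for ChIP over input the compared groups were all the groups in the fit, so this alternative equals the reported value. ΔLEO1 10% serum ChIP replicate B could not be left out, and no peak alternatives were run, as no peak lay at TERT. At 6 to 39 reads per library in the TERT start window, only large differences could be detected.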
